A study of Homo sapiens with 4 samples.

Results

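The mammary gland is lined by luminal epithelial cells, which carry hormone receptors or make secretory products, and by basal, myoepithelial cells, which contract and share part of their programme with mesenchymal cells. FOXA1, GATA3 and the ETS factors ELF3, ELF5 and EHF act on the luminal side, and SNAI, ZEB and TWIST factors act on the mesenchymal side, where SNAI and ZEB proteins repress epithelial genes through E-boxes in DNA. Apocrine cells are a secretory luminal type known for PIP and AZGP1. Expression of 35 genes of these lineages, keratins left out, was examined after knockdown of mutant p53. They were named as 21 luminal/apocrine and 14 basal/mesenchymal genes from what is known of the breast, with earlier results of these data known. Of these, 33 were measured out of 18417 genes on the arrays, all 21 of the first group and 12 of the second. FOXC1 and MIA are not analysed here.

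The RNA came from MDA-MB-468, an established line of human breast cancer in which p53 is the mutant R273H. For 2 arrays the cells had been transduced with the lentiviral p53 shRNA p53si-1, and for 2 with non-targeting lentiviral shRNA (NS), so all cells had been exposed to lentivirus. The arrays hold 1 line and 1 p53 shRNA sequence, so loss of the mutant protein and other effects of that shRNA cannot be told apart. The study describes the replicates as independent experiments and gives the time of harvest differently in its methods and results. It also reports apoptosis of these cells after this knockdown, and the part of dying or surviving cells in the differences was not tested. Values are log2 RMA signals, 1 per transcript cluster, the group of probes that Affymetrix assigns to a gene, and the cluster with the highest mean was used for each gene. The probes of different genes differ in brightness, so signals are compared between arrays and not between genes. Differences are p53si-1 minus NS group means on the log2 scale, tested by a limma fit, with p-values adjusted for all genes measured. How far the p53 transcript itself was lowered is not analysed here.

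The arrays were alike in scale, with medians over all genes between 6.56 and 6.61. The probes of epithelial genes gave signals of 12.01 to 12.25 for the adhesion molecule EPCAM and group means for p53si-1 and NS of 9.39 and 9.53 for E-cadherin, CDH1, and of 9.99 and 9.88 for the growth factor receptor EGFR. The receptors ESR1 and PGR had signals under 5 on every array, and since brightness also depends on the probes, none of these signals tests the label of the line. Of 20 markers of leukocytes, fibroblasts, endothelium and adipocytes, 19 were measured and none was called by limma, where 0.109% of all genes were. Only 1 marker had an unadjusted p under 0.05, where 12.3% of all genes lay, the endothelial growth factor receptor KDR. The summed linear signals of these lists ran from 207 to 235 for leukocytes, from 210 to 229 for fibroblasts and from 123 to 137 for adipocytes on p53si-1 arrays, against 216 to 233, 234 to 246 and 126 to 130 on NS arrays. The endothelial sum was 568 to 663 on p53si-1 arrays against 415 to 518 on NS arrays and was mostly KDR, while the defining markers PECAM1 and CDH5 had mean signals with p53si-1 of 4.29 and 4.80, and with NS of 4.32 and 4.90. The part of these markers in the results was not tested.

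Knockdown was followed by a higher level of PIP, the secreted prolactin-induced protein of apocrine epithelium, and PIP alone among the 33 members passed the test over all genes. Both p53si-1 arrays were at 7.89 for PIP, against 6.71 and 6.81 on the NS arrays. The p53si-1 arrays lay more than 1 log2 unit above both NS arrays. PIP rose 2.19-fold, a log2 difference of 1.13 with a standard error of 0.08 and a 95% interval of 0.92 to 1.33 (adjusted p = 0.0424, limma, 2 arrays a group). It kept its size without any 1 array, with differences of 1.08 to 1.18, but then no longer passed (adjusted p = 0.0652 to 0.223, limma). Over all genes 0.109% passed, 0.0326% as higher and 0.076% as lower. RNA was taken from whole cultures, so a larger share of PIP-expressing cells and more PIP RNA in each cell cannot be told apart.

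As PIP is the member on which the results turn, the RefSeq window around its annotated start is shown, on the plus strand at chr7:143131827-143132126 (GRCh38.p14). Capitals mark a TATATAA stretch and an E-box CACCTG, the letters that SNAI and ZEB proteins are known to bind.
PIP: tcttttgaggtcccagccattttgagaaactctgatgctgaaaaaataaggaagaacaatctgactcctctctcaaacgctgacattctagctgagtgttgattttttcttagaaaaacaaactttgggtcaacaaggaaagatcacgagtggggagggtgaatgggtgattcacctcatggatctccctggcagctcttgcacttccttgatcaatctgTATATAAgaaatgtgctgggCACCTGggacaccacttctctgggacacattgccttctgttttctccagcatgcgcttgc

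**Figure D1:**
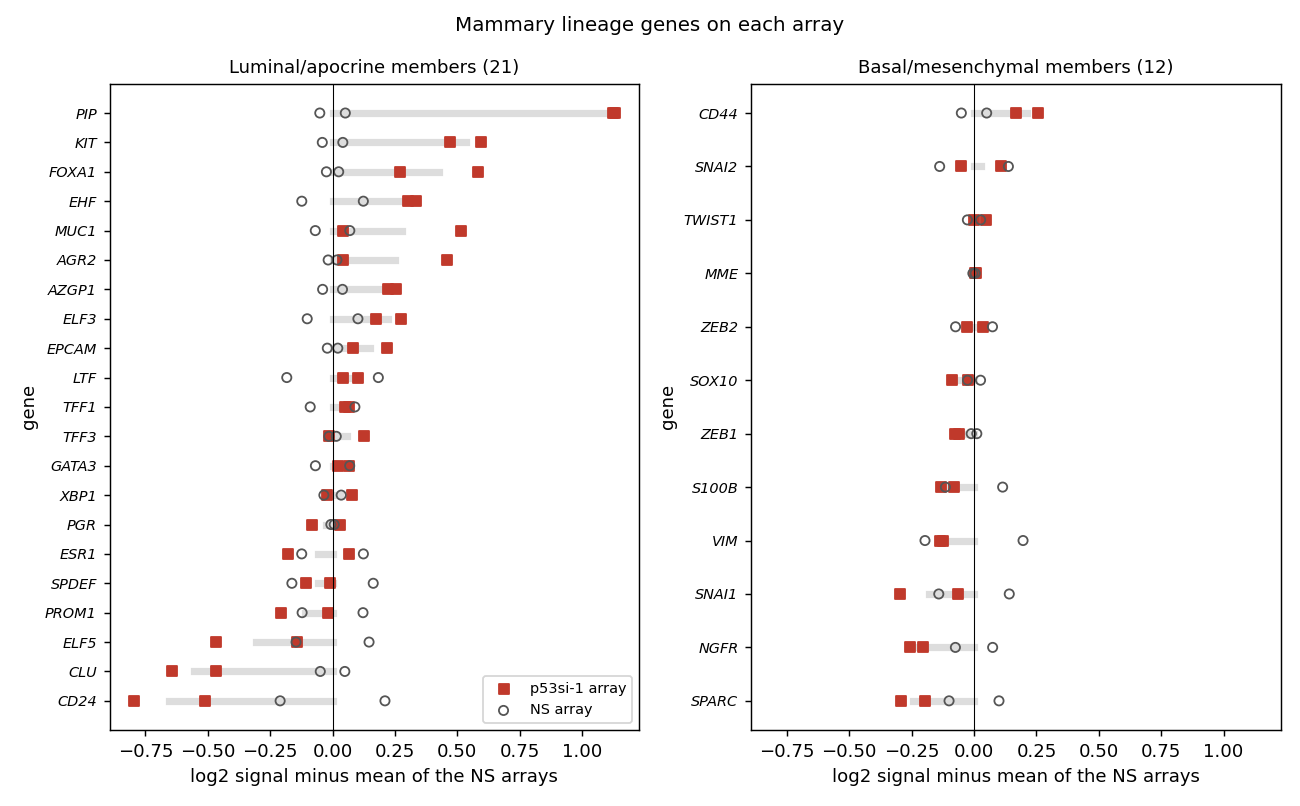
Log2 signals of the members by array, set against the NS mean of each, with luminal/apocrine members on the left and basal/mesenchymal members on the right. Squares are p53si-1 arrays, open circles are NS arrays and grey bars run to the mean difference. PIP stands apart at 1.13, the other luminal/apocrine members run from -0.65 to 0.53, and the basal/mesenchymal members from -0.24 to 0.21.

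The other secreted and apical products of the luminal group differed less. AZGP1, the zinc-binding glycoprotein secreted with PIP by apocrine cells, was at 12.19 and 12.16 with p53si-1, against 11.98 and 11.90 with NS. The groups did not overlap, and the difference was 0.24 with a standard error of 0.08 (adjusted p = 0.338, limma). AGR2, a disulfide isomerase of the endoplasmic reticulum that helps fold mucins, was at 8.19 and 8.60 with p53si-1 and at 8.13 and 8.16 with NS, so its difference of 0.25 came mainly from p53si-1 replicate 2 and was 0.042 without that array. For the apical mucin MUC1 it was replicate 1 of p53si-1 that stood higher, at 9.25 against 8.77 for replicate 2, with NS at 8.80 and 8.66, and the difference of 0.28 was 0.043 without that array. The trefoil peptides TFF1 and TFF3 and the iron-binding milk protein lactoferrin, LTF, were at 0.056, 0.056 and 0.07, with overlapping groups. Clusterin, CLU, a secreted chaperone, ran the other way, at 6.34 and 6.16 with p53si-1 against 6.85 and 6.75 with NS. All p53si-1 values of CLU were below all NS values, by a mean of -0.55 with a standard error of 0.10 (adjusted p = 0.107, limma).

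Among luminal transcription factors, FOXA1, a pioneer factor that opens chromatin for the estrogen receptor, was at 7.55 and 7.24 with p53si-1 and at 6.94 and 6.99 with NS. The p53si-1 arrays were both higher, yet differed from each other by 0.31, and the difference of 0.43 (95% interval 0.14 to 0.72) did not pass (adjusted p = 0.244, limma). Without p53si-1 replicate 1 the FOXA1 difference was 0.27. GATA3, which specifies the luminal lineage, was at 8.84 and 8.88 with p53si-1 and at 8.74 and 8.88 with NS, and its 95% interval of -0.17 to 0.26 held 0. XBP1, a factor of secretory cells, and SPDEF, an ETS factor of luminal and goblet cells, were at 0.029 and -0.059 with overlapping groups, XBP1 turning to -0.013 after quantile normalization. The estrogen receptor gene ESR1 was at 4.31 and 4.56 with p53si-1, against 4.62 and 4.37 with NS, and the progesterone receptor gene PGR was at 4.002 and 3.891, against 3.97 and 3.98. Both receptor genes were dim and overlapped between groups, with 95% intervals of -0.36 to 0.25 and -0.23 to 0.18.

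Of the epithelial ETS factors, EHF and ELF3 had a higher mean with p53si-1 and ELF5 a lower one, and none passed by limma. EHF was at 9.51 and 9.48 with p53si-1 and at 9.06 and 9.30 with NS, a difference of 0.32 with a standard error of 0.11 (adjusted p = 0.32, limma). ELF3, an ETS factor of differentiating epithelium, was at 10.33 and 10.23 with p53si-1 against 10.16 and 9.96 with NS, a difference of 0.22 (95% interval -0.025 to 0.47). Both lay higher on each p53si-1 array than on either NS array, but EHF was at 0.19 without NS replicate 1 and ELF3 at 0.12 without NS replicate 2. ELF5, which drives alveolar differentiation of luminal progenitors, was at 9.39 and 9.06 with p53si-1 and at 9.67 and 9.38 with NS, lower in the mean by -0.31 with overlapping groups (95% interval -0.66 to 0.053). The ELF5 difference was -0.14 without p53si-1 replicate 2, -0.16 without NS replicate 1 and -0.47 without p53si-1 replicate 1. EHF and ELF5 lie on chromosome 11, as does CD44.

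The luminal progenitor and surface genes held the second largest increase and the largest decrease among the members. KIT, the stem cell factor receptor that marks luminal progenitors, was at 10.16 and 10.04 with p53si-1, against 9.61 and 9.53 with NS. The groups were well separated, with a difference of 0.53, a standard error of 0.09 and a 95% interval of 0.32 to 0.75. KIT did not pass over all genes (adjusted p = 0.0978, limma), but passed under a signal-dependent prior variance (adjusted p = 0.0357, limma). CD24, a glycosylated surface protein of luminal cells, was at 10.75 and 10.46 with p53si-1 and at 11.47 and 11.05 with NS. Its p53si-1 values were all lower, while replicates differed by 0.29 and 0.42 within the p53si-1 and NS groups, and the difference of -0.65 had a standard error of 0.16 (adjusted p = 0.207, limma). CD24 has near-identical copies elsewhere in the genome, so its signal cannot be tied to the gene alone. EPCAM was at 12.11 and 12.25 with p53si-1, against 12.05 and 12.01 with NS, a difference of 0.15, and a second EPCAM cluster was at 0.081. The cluster used was the brighter, with a mean signal of 12.10 against 11.86. Which of the 2 better reads the gene itself was not tested. PROM1, the CD133 antigen, was at -0.11 with overlapping groups.

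**Figure D2:**
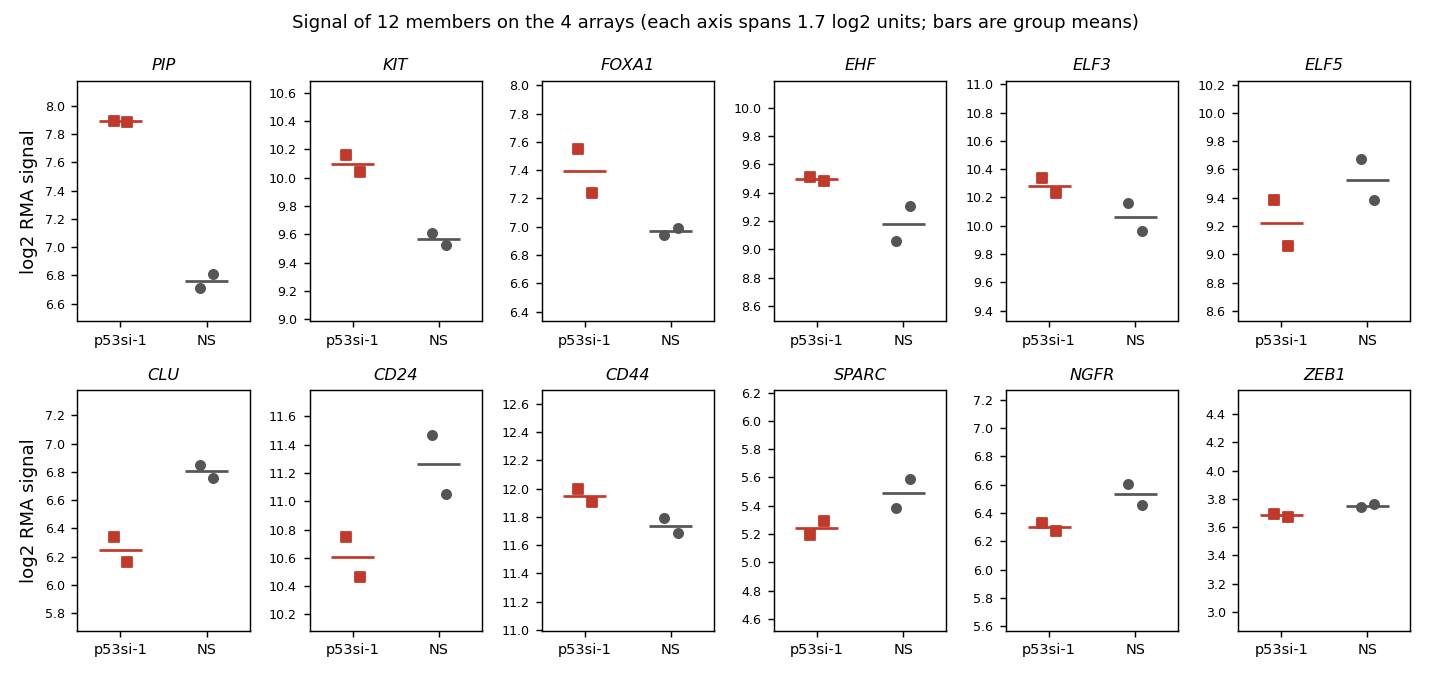
Log2 RMA signal of 12 members, with p53si-1 arrays (red squares) left of NS arrays (grey circles), replicate 1 left of replicate 2 and group means as bars. PIP, KIT, FOXA1, EHF, ELF3 and CD44 were higher on both p53si-1 arrays, CLU, CD24, SPARC, NGFR and ZEB1 were lower on both, and the groups overlapped for ELF5. The 12 were chosen for display. Among all 33 members the groups did not overlap for 14 (42.4%), against 42.5% of all genes.

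None of the 12 basal/mesenchymal members was called by limma, where 0.109% of all genes were. Of these members 1, NGFR, had an unadjusted p under 0.05, where 12.3% of all genes lay. The repressors that bind E-boxes stayed dim or overlapped. ZEB1 was at 3.69 and 3.68 with p53si-1 and at 3.74 and 3.76 with NS, a difference of -0.068 with a 95% interval of -0.26 to 0.13. SNAI2 was at 4.03 and 3.87 against 3.78 and 4.06, and ZEB2 and SNAI1 were at 0.0021 and -0.18. At such signals a change in ZEB1, ZEB2 or SNAI2 was hardly detectable. TWIST1, a helix-loop-helix factor of mesenchyme, was at 0.024 (95% interval -0.17 to 0.22).

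The structural and surface genes of the basal side were split in direction. Vimentin, VIM, the intermediate filament of mesenchymal cells, was at 7.37 and 7.38 with p53si-1, between the NS values of 7.70 and 7.31. The hyaluronan receptor CD44 was at 11.996 and 11.905 with p53si-1 against 11.79 and 11.69 with NS, the only basal/mesenchymal member with both p53si-1 arrays above both NS arrays. Its difference was 0.21 with a standard error of 0.09 (adjusted p = 0.41, limma). The neurotrophin receptor NGFR was at 6.33 and 6.28 with p53si-1 against 6.61 and 6.46 with NS, and the matrix protein SPARC at 5.196 and 5.291 against 5.39 and 5.59. Both were lower on each p53si-1 array, with differences of -0.23 and -0.24 and standard errors of 0.09 and 0.10 (adjusted p = 0.39 and 0.409, limma), that of SPARC being -0.14 without NS replicate 2. MME, the CD10 peptidase of myoepithelial cells, was at 11.31 and 11.32 with p53si-1 and at 11.31 and 11.30 with NS, a difference of 0.0048 that turned to -0.052 after quantile normalization (95% interval -0.19 to 0.20 before it). SOX10, a factor of neural crest and basal-like breast cells, was at 6.51 and 6.58 against 6.57 and 6.63, and the calcium-binding S100B was dim, with a difference of -0.11.

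Set side by side, the luminal/apocrine members were spread widely and the basal/mesenchymal members narrowly. Of 21 luminal/apocrine members 14 had a higher mean with p53si-1, and the median difference was 0.056 with quartiles of -0.057 and 0.25. Of 12 basal/mesenchymal members 5 had a higher mean, and the median was -0.061 with quartiles of -0.14 and 0.0095. Over all genes 47.4% had a higher mean and the median was -0.0089. Between same-numbered arrays the luminal/apocrine median was 0.036 for replicate 1 and 0.14 for replicate 2, and the basal/mesenchymal median was -0.055 and -0.0029. Measured on each array against the NS mean, the luminal/apocrine median was 0.040 and 0.080 on the p53si-1 arrays and 0.040 and -0.040 on the NS arrays, so that p53si-1 replicate 1 was level with NS replicate 1. The basal/mesenchymal median was -0.070 and -0.058 on the p53si-1 arrays, against 0.039 and -0.039 on the NS arrays. The luminal/apocrine median thus differed between p53si-1 and NS by an amount close to the differences between replicates. The basal/mesenchymal median was lower on both p53si-1 arrays, which lay close together, while the NS arrays differed by an amount close to the difference between groups. Without NS replicate 1 the luminal/apocrine and basal/mesenchymal median differences were 0.15 and -0.015, further from and nearer to 0.

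**Figure D3:**
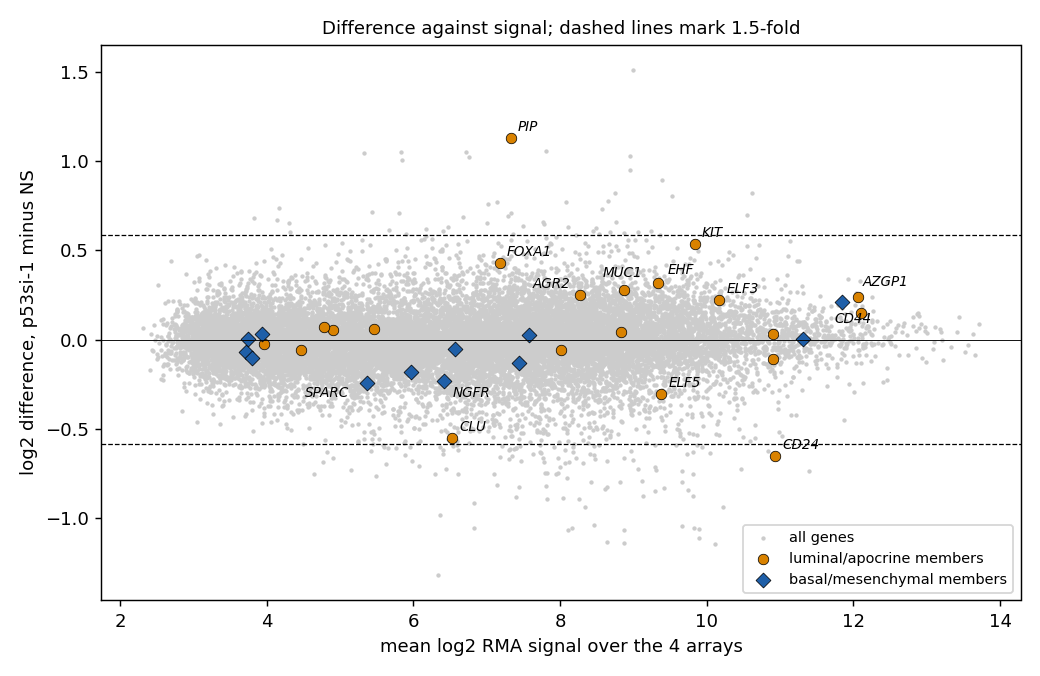
Log2 difference (p53si-1 minus NS) against the mean log2 RMA signal over the 4 arrays, with all 18417 genes in grey, luminal/apocrine members as orange circles and basal/mesenchymal members as blue diamonds. Dashed lines mark 1.5-fold, which PIP and CD24 exceed, and members beyond 0.2 in size are named.

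Counts past a fold gave the same picture. PIP and CD24 were the only members beyond 1.5-fold, where 0.923% of all genes lay (0.271% higher and 0.652% lower). Beyond 1.2-fold lay 8 of the 21 luminal/apocrine members, 5 higher and 3 lower, and 0 of the 12 basal/mesenchymal members, against 10.6% of all genes (4.63% higher and 5.97% lower). The 5 were PIP, KIT, FOXA1, EHF and MUC1 and the 3 were CD24, CLU and ELF5. Members of both groups with a mean signal under 5 numbered 4 each, and among genes above that signal 12.4% exceeded 1.2-fold. At an unadjusted p under 0.05 there were 8 of 33 members, against 12.3% of all genes. The 2 groups of arrays did not overlap for 14 of the 33 members (42.4%), which is the background share of 42.5% over all genes. By direction, p53si-1 was above NS in 8 of 21 luminal/apocrine members (38.1%) and in 1 of 12 basal/mesenchymal members (8.33%), where 19.9% of all genes were. It was below NS in 2 of 21 (9.52%) and in 3 of 12, where 22.6% of all genes were. With arrays centred on their median, p53si-1 was above NS in 9 luminal/apocrine and 3 basal/mesenchymal members (24.6% of all genes) and below in 2 and 3 (18.2%), and beyond 1.2-fold lay 6 luminal/apocrine members as higher and 3 as lower (5.82% and 5.01% of all genes). The lists are short, and no test of a list was made. They were chosen with earlier results of these data known, so their shares cannot be read as independent of these arrays.

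Other genes of the same lineages that are not members were described by the same counts. No gene of these lists passed by limma, where 0.109% of all genes did. These lists too were chosen with earlier results of these data known. Of 13 measured hormone-sensing genes 5 had a higher mean (median -0.024), with 4 at an unadjusted p under 0.05, where 12.3% of all genes lay. Their largest differences were the transcription factor MYB at 0.48 (standard error 0.08, adjusted p = 0.109, limma), TBC1D9 at 0.34 and the zinc transporter SLC39A6 at 0.28. Of 15 secretory and milk genes 7 had a higher mean (median -0.017), but 10 of the 15 had a mean signal under 5. ALDH1A3, a retinaldehyde dehydrogenase of luminal progenitors, was at 0.44 (standard error 0.13, adjusted p = 0.253, limma). It was followed by the secretoglobin SCGB1D2 at 0.14 and APOD at -0.10, both dim. The milk proteins CSN2 and LALBA were dim in both groups, at 3.38 and 3.66 with p53si-1 and 3.33 and 3.73 with NS. Of 8 epithelial identity genes 4 had a higher mean, with GRHL2, an epithelial transcription factor, at 0.28, the growth factor receptor ERBB2 at -0.22 and the membrane protease ST14 at -0.21. At an unadjusted p under 0.05 there were 1 of 15 secretory and 2 of 8 epithelial identity genes. With arrays centred on their median, 7 hormone-sensing, 8 secretory and 4 epithelial identity genes had a higher mean, and the medians turned to 0.00057, 0.0073 and 0.019.

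On the basal side, the mean was lower with p53si-1 for 10 of 11 myoepithelial genes and 10 of 12 mesenchymal genes, with medians of -0.074 and -0.11, while 47.4% of all genes had a higher mean. With arrays centred on their median, which left 54.7% of all genes with a higher mean, it was lower for 9 of 11 and 9 of 12, with medians of -0.050 and -0.088. The largest myoepithelial differences were smooth muscle actin, ACTA2, at -0.28, the oxytocin receptor OXTR at -0.21 and P-cadherin, CDH3, at -0.20, with EGFR the exception at 0.11. The largest mesenchymal ones were TGFBI, a matrix protein induced by TGF-beta, at -0.65 (standard error 0.09, adjusted p = 0.0721, limma), which passed as the only such gene without dim genes and under a signal-dependent prior, the matrix metalloproteinase MMP2 at -0.54 (standard error 0.13) and fibronectin, FN1, at -0.41 (standard error 0.24). At an unadjusted p under 0.05 there were 1 of 11 and 3 of 12, against 12.3% of all genes. The p53si-1 arrays lay below both NS arrays for 6 of 11 and 7 of 12 genes and above them for none, against 22.6% and 19.9% of all genes. Lower values were not confined to these lists. The p53si-1 arrays lay below for 3 of 8 epithelial identity, 1 of 13 hormone-sensing and 2 of 15 secretory genes, and above for 2, 3 and 3. Of 5 fibroblast markers 3 lay below. Some of these genes are also known as actin and matrix genes and are not specific to mammary cells.

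**Figure D4:**
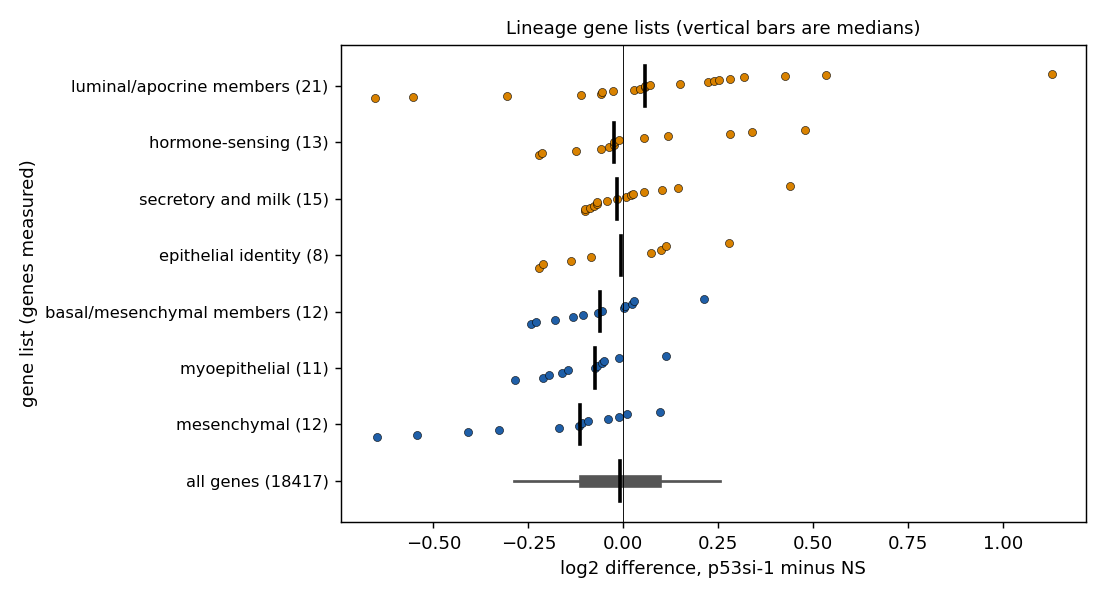
Log2 difference (p53si-1 minus NS) of each gene of 7 lineage lists, luminal lists in orange and basal lists in blue, with medians as vertical bars. The bottom row gives all genes, the thick bar spanning the quartiles and the thin line the central 90%. Medians run from -0.11 for mesenchymal genes to 0.056 for luminal/apocrine members.

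Since SNAI and ZEB factors act through the E-box CACCTG, which reads CAGGTG on the other strand, RefSeq windows of 300 bases around annotated starts were searched for these letters. Windows were held for 17 of the 21 luminal/apocrine members and 8 of the 14 basal/mesenchymal members, FOXC1 and MIA included, and several genes have more than 1 window, some of them overlapping. The letters were in 14 of 39 luminal/apocrine windows (35.9%) and 4 of 18 basal/mesenchymal windows (22.2%), against 19.9% of 22199 windows of protein-coding genes. By gene they were in 9 of 17 and in 2 of 8, against 24.8% of 15843 genes. The shares by gene are not like for like, since members had more windows a gene. The members held 39 windows for 17 genes and 18 for 8, against 22199 for 15843. The members that hold them did not share a direction. PIP, FOXA1, ELF3, AGR2, MUC1 and LTF had higher means with p53si-1, MUC1 and LTF with overlapping groups. CD24, ELF5 and PROM1 had lower ones, ELF5 and PROM1 with overlapping groups. Of all 21 luminal/apocrine members, 14 had a higher mean. The 2 basal/mesenchymal genes with the letters, MME and ZEB1, were at 0.0048 and -0.068. For FOXA1, ELF3 and ELF5, which lie on chromosomes 14, 1 and 11, stretches of 40 bases are given with the E-box in capitals, each on its gene's strand.
FOXA1 (chr14:37595349-37595388, minus strand): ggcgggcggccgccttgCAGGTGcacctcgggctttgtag
ELF3 (chr1:202010450-202010489, plus strand): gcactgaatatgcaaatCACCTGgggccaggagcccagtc
ELF5 (chr11:34511701-34511740, minus strand): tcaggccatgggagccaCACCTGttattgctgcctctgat
The forkhead letters TGTTTAC or TGTTTGC, on either strand, were in 4 of 39 luminal/apocrine windows (10.3%), in those of FOXA1, GATA3, EHF and ELF5, and in 1 of 18 basal/mesenchymal windows (5.56%), against 6.11% of windows of protein-coding genes. The GATA letters AGATAA or TGATAA were in 2 of 39 luminal/apocrine windows (5.13%) and 1 of 18 basal/mesenchymal windows, against 12.5%, and the TATA letters TATAAA or TATATA in 6 of 39 (15.4%) and 0 of 18, against 11.3%. A match of letters shows no binding.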

How the data were processed

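The deposited values are on the log2 scale and were used as found; the submitters' processing notes list RMA, GCOS and Affymetrix Expression Console. Their scale is judged from their range of 1.75 to 14.3, and for RMA no settings are given in the sources used here. This method makes the distributions of arrays alike and draws small differences of dim probes toward 0. Of 33297 transcript clusters 19460 name 1 gene symbol in the platform annotation, which left 18417 genes after the brightest cluster was taken for each; clusters with several symbols (1754) or unnamed here (12083) were not used, among them that of MIA. Groups followed the sample titles, with 2 arrays each, whose number limits the precision. All genes went into 1 moderated fit (limma 3.58.1, R 4.3.3) whose prior carried 4.20 degrees of freedom beside 2 from the arrays, and p-values were adjusted by Benjamini-Hochberg. An exact permutation over these arrays has 0.333 as its smallest two-sided p. All members are named, with the value of each array for those of 0.3 or more in size, those that passed and those that define a lineage, and some others; related lists are represented by their 3 largest differences. Members and lists were chosen with earlier results of these data known. The steps were tested on simulated data. Alternatives changed the cluster, the dim genes, the scaling, the prior variance, the block, the arrays and the fold.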

Additional observations from a re-analysis of the deposited data

How the results depend on the processing

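Of 10 alternatives, 7 change the differences themselves; under these 18 of the 33 members kept their direction and 15 did not. The number of genes passing over all genes was 20, and 100 without genes under a mean signal of 5, 55 with arrays centred on their median, 149 with a prior variance that depends on the signal and 12 with the replicate number as a block; without 1 array it was 0 to 1. Members passing were 1, and 2 (PIP and KIT) with the signal-dependent prior and 0 without any 1 array; PIP passed under every other alternative, the block included. Members beyond 1.5-fold were 2, and 8 beyond 1.2-fold, 1 beyond 2-fold, and 1 to 3 without 1 array. Members whose groups did not overlap were 14, and 20 to 27 without 1 array, where fewer values have to be separated. The luminal/apocrine median was 0.15 without dim genes and 0.040 to 0.15 without 1 array, and the basal/mesenchymal median was -0.093 without dim genes, -0.037 with centred arrays and -0.070 to -0.015 without 1 array. The cause of these shifts was not tested. Averaging all clusters of a gene turned ESR1 to 0.0099 and ZEB2 to -0.050, and quantile normalization turned XBP1 to -0.013 and MME to -0.052. Without 1 array the differences ran from -0.18 to 0.067 for ESR1, -0.082 to 0.029 for PGR, -0.024 to 0.11 for GATA3, -0.022 to 0.080 for XBP1, -0.22 to 0.10 for SPDEF, -0.033 to 0.15 for TFF1, -0.013 to 0.13 for TFF3, -0.23 to 0.011 for PROM1, -0.11 to 0.25 for LTF, -0.33 to 0.065 for VIM, -0.072 to 0.076 for ZEB2, -0.11 to 0.17 for SNAI2, -0.0027 to 0.050 for TWIST1 and -0.22 to 0.0094 for S100B. The replicate number is only a shared number here, since no source ties it to a culture or day, and same-numbered arrays deviated together across genes (correlation 0.24). With 2 arrays a group, many differences miss the threshold, those beyond 1.5-fold included. Of all genes 170 lay beyond 1.5-fold, while 20 passed in all. In simulated data 42% of 1.5-fold and 88% of 2-fold changes were recovered. There 50 genes were changed at each of 1.5-, 2-, 3- and 4-fold, and 100% of the 3- and 4-fold changes were recovered. The adjusted threshold depends on how many genes change. With only 20 genes passing on these arrays, the simulated shares may be too high for them. Dim genes such as ESR1, PGR, ZEB1 and ZEB2 show little either way.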

Other observations

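Among markers of other cell types, KDR, a growth factor receptor best known from endothelium, was at 8.91 and 9.18 with p53si-1, against 8.36 and 8.73 with NS (log2 difference 0.50, standard error 0.15, adjusted p = 0.275, limma). The groups did not overlap, and the other measured endothelial markers PECAM1, CDH5, VWF and TEK were at -0.035, -0.10, -0.068 and -0.092.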
